A study of Mus musculus with 4 samples.

Results

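The 10 genes described here are the metallothioneins Mt1 and Mt2 and the antioxidant genes Gpx3, Gpx4, Nfe2l2, Hmox1, Txnip, Gclc, Sod2 and Txnrd1, out of 21594 gene symbols in the series. They were taken by name from a list drawn up with earlier results of these data known, and all 10 were present in the files. The cells came from islets of 2-month-old mice. The 2 mutant samples were Atf4F/F; Ins1Cre, in which Cre recombinase is expressed from the insulin 1 locus and deletes the floxed gene Atf4 in beta cells, and the 2 control samples were Atf4F/F. The labels name no Cre for the controls, so loss of Atf4 and presence of Cre cannot be told apart. All mice were untreated, each sample pooled islets of 3 to 4 animals of both sexes (the series' design text gives 2 males and 2 females), and tdT+ and tdT- beta cells were processed together. Single cells were captured in droplets by inDrops, which counts transcripts by unique molecular identifiers (UMIs).

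Metallothioneins are small cysteine-rich proteins that bind zinc and copper and react with oxidants, and beta cells hold much zinc because insulin is stored in crystals with it. Glutathione peroxidases reduce peroxides with glutathione, which is made by a pathway whose first enzyme includes Gclc, and thioredoxin, kept reduced by Txnrd1 and bound by Txnip, is a parallel system. Nfe2l2 encodes Nrf2, a transcription factor that switches on many antioxidant genes, Hmox1 and Gclc among them. Atf4 encodes a stress-induced transcription factor that acts on genes of amino acid supply and redox control. Beta cells are known for low levels of several enzymes that remove peroxides.

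Mt1 and Mt2 lie side by side on mouse chromosome 8 on the plus strand, with 5513 bases between them (Mt2 at chr8:94172664-94173568 and Mt1 at chr8:94179082-94180327, GENCODE vM21 on GRCm38). The 250 bases before the RefSeq start of Mt1 (chr8:94178839-94179088), Mt2 (chr8:94172368-94172617) and Txnip (chr3:96557707-96557956), all plus strand, build GRCm38.p6, are shown because the metallothioneins neighbour each other and the motifs of these 3 promoters are well known. Capitals mark the metal response element core in Mt1 and Mt2 (TGCACNC or TGCGCNC, the letters bound by the zinc-sensing factor Mtf1), and in Txnip a tandem pair of E-boxes (each CACGNG), the kind of site bound by the glucose-responsive factors ChREBP and MondoA.
Mt1: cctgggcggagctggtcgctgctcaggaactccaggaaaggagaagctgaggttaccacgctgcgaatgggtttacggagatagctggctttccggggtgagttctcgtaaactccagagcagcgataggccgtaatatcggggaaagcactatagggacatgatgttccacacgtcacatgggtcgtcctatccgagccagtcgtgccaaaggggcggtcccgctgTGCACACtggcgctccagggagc
Mt2: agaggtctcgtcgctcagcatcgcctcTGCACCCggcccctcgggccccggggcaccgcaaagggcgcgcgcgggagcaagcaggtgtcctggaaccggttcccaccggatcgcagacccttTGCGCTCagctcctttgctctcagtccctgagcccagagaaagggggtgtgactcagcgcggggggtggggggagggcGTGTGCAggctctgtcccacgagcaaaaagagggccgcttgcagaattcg
Txnip: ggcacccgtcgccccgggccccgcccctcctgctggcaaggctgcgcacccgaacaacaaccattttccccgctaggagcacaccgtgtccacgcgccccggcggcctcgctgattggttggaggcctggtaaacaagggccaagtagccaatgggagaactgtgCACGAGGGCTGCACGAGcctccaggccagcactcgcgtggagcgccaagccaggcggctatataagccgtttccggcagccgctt
Searched on both strands within these 250 bases only, the metal response core had 1 match before Mt1 and 3 before Mt2, one of the latter on the opposite strand. Sites further upstream or after the RefSeq start were not searched, so these counts do not compare whole promoters. At least 1 match was present in 21.4% of 32817 RefSeq promoter windows of this length, and at least 3 in 1.26%. The tandem E-box was found in 15 windows, 0.0457% of all, the Txnip window among them, which also held 1 metal response core. The antioxidant response core TGACNNNGC, bound by Nrf2, had 1 match each before Mt2, Nfe2l2 and 1 of the 3 Txnrd1 starts, against 10.2% of all windows. The letters TGATGNAA, a composite C/EBP-ATF site, were in 3.45% of all windows and in none of the 13 windows of the 8 members with a RefSeq promoter entry. No match overlapped one of another motif. Hmox1 and Gclc were not matched to an entry.

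The 4 libraries held between 13706563 and 17655893 UMIs, and 6967 of 11114 barcodes were kept as cells. Classes were named from marker genes, with the 10 members left out of the clustering: beta-like cells (between 840 and 1325 in a library), and alpha-, delta-, PP-, endothelial- and macrophage-like cells (between 32 and 223). The 345 cells led by acinar genes were left unnamed, and stellate-like cells were too few in the controls to compare. Leading genes of the delta-like cluster included haemoglobin genes and those of the macrophage-like cluster immunoglobulin genes. Beta-like cells formed 6 clusters, and those in the 2 clusters led by Ccng1 and Cdkn1a made up 73.5% and 66.1% in the mutants but 3.47% and 2.92% in the controls. Of the barcode strings, 375 occurred in more than 1 library. The doublet caller marked 28 of 6995 cells, 0.400%, too few to show that it worked, and many barcodes of the other classes carried insulin counts at a beta-cell level (the median insulin share reached 36.0% in macrophage-like cells of control 1, beside 37.2% to 42.8% in beta-like cells). Results in those classes are therefore given for all barcodes and for barcodes with under 5% insulin counts, called insulin-poor.

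The targeted gene was measured first. Summed over beta-like cells, Atf4 stood at 3.29 CPM in mutant 1, 117 in mutant 2, 362 in control 1 and 378 in control 2. Both mutants were below both controls, but mutant 2 lay far above mutant 1, and the difference did not pass the test (log2 -2.63 ± 0.998 SE, edgeR adjusted p = 0.279). Atf4 was also lower in both mutants in the other classes with all barcodes, where the log2 change was -0.99 ± 0.165 SE in delta-like cells (edgeR adjusted p = 0.00919) and between -1.13 and -0.46 in the rest, none of which passed. With insulin-poor barcodes, on the across-class scale, Atf4 stood at 240 and 218 CPM in the mutants against 307 and 262 in the controls in delta-like cells, and at 305 and 344 against 523 and 405 in alpha-like cells. The groups overlapped in PP-like (289 and 445 against 515 and 377), endothelial-like (403 and 447 against 279 and 476) and macrophage-like cells (229 and 251 against 230 and 329). CPM values here and below are UMI counts per 1000000, scaled by edgeR's trimmed mean of M-values (TMM), either within 1 class or, where levels of classes are set side by side, across classes.

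On the across-class scale, the metallothioneins were highest in beta-like cells. With insulin-poor barcodes in the other classes, Mt1 stood at 913 and 995 CPM in beta-like cells of the mutants and at 1476 and 1496 in those of the controls. PP-like cells came next (297 to 548), without overlap with beta-like cells. Alpha-like, delta-like and macrophage-like cells followed with ranges that overlapped one another (178 to 287, 152 to 349 and 179 to 263), and the delta-like range also overlapped that of PP-like cells. Endothelial-like cells were lowest, at 14.2 to 65.7 CPM from 12 UMIs in all. Mt2 ran from 464 to 945 CPM in beta-like cells, with no overlap with PP-like cells (204 to 438), though these classes overlapped with all barcodes, and from 11.2 to 32.8 in endothelial-like cells. The log2 level in beta-like cells over the mean of the other 3 endocrine classes was 1.24 ± 0.173 for Mt1 and 1.21 ± 0.202 for Mt2 with all barcodes (SD, n = 4), above 0 in 4 of 4 libraries. With insulin-poor barcodes these means were 1.97 and 1.86, against a median of 0.19 over 6028 genes. Insulin RNA was measured beside them per UMI, with insulin counts kept in the totals and insulin-poor barcodes in the other classes. Alpha-like cells held 24.0% to 28.8% of the beta-like level of Mt1, beside 0.99% to 1.9% for Ins1 and 1.8% to 3.0% for Ins2. Endothelial-like cells held 1.6% to 9.7%, beside 1.0% to 2.4% and 2.1% to 4.3%. PP-like cells held 27.7% to 69.9%, beside 1.1% to 3.2% and 2.1% to 4.7%. On this measure PP-like Mt2 was above the beta-like level in mutant 1 (110.8%) and at 40.5% to 59.0% in the other libraries. The insulin-poor limit itself keeps these insulin values low, and the origin of the Mt1 RNA was not tested. With all barcodes, PP-like cells held 56.8% to 75.6% for Mt1, beside 41.2% to 62.0% for Ins1. Endothelial-like cells then held 43.5% to 62.9% beside 49.4% to 79.7%, and alpha-like cells 24.7% to 29.0% beside 1.8% to 2.7%.

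Gpx3, the secreted glutathione peroxidase, had the opposite pattern. On the same scale it stood at 2405 to 2820 CPM in alpha-like cells, 1738 to 2452 in PP-like cells, 1212 to 1501 in delta-like cells and 64.7 to 154 in beta-like cells. Alpha- and PP-like ranges overlapped, and delta-like cells lay below both. Over all barcodes the mean of the other 3 endocrine classes was 17.3 times the beta-like level, with a log2 ratio of -4.11 ± 0.573 (SD, n = 4) that was below 0 in 4 of 4 libraries. Per UMI, Gpx3 in beta-like cells was 2.09% to 4.10% of the alpha-like level, beside 0.630% to 0.857% for Gcg, the glucagon gene.

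The other members had their highest means in various classes. Nfe2l2 was highest in macrophage-like cells (307 to 402 CPM, insulin-poor barcodes), then in endothelial-like cells (148 to 249), and both were above the 32.4 to 89.3 seen over the endocrine classes. Hmox1, which breaks down haem, was also highest in macrophage-like cells, at 16.4 to 131 CPM from 20 UMIs, and lay between 7.03 and 13.6 in beta-like cells, above alpha-like (2.64 to 4.45) and delta-like cells (0 to 3.49), where it rested on 11 and 4 UMIs. Txnip was highest in endothelial-like cells at 688 to 1066 CPM, with no overlap with any endocrine class (191 to 509). Sod2, the mitochondrial superoxide dismutase, was highest in beta-like cells at 173 to 186 CPM, above delta-like cells at 103 to 126. Gpx4, which removes lipid peroxides, and Gclc had their highest means in endothelial-like cells, and Txnrd1, thioredoxin reductase of the cytosol, had its highest in PP-like cells (91.3 to 114 CPM), each with overlap of the next class.

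**Figure D1:**
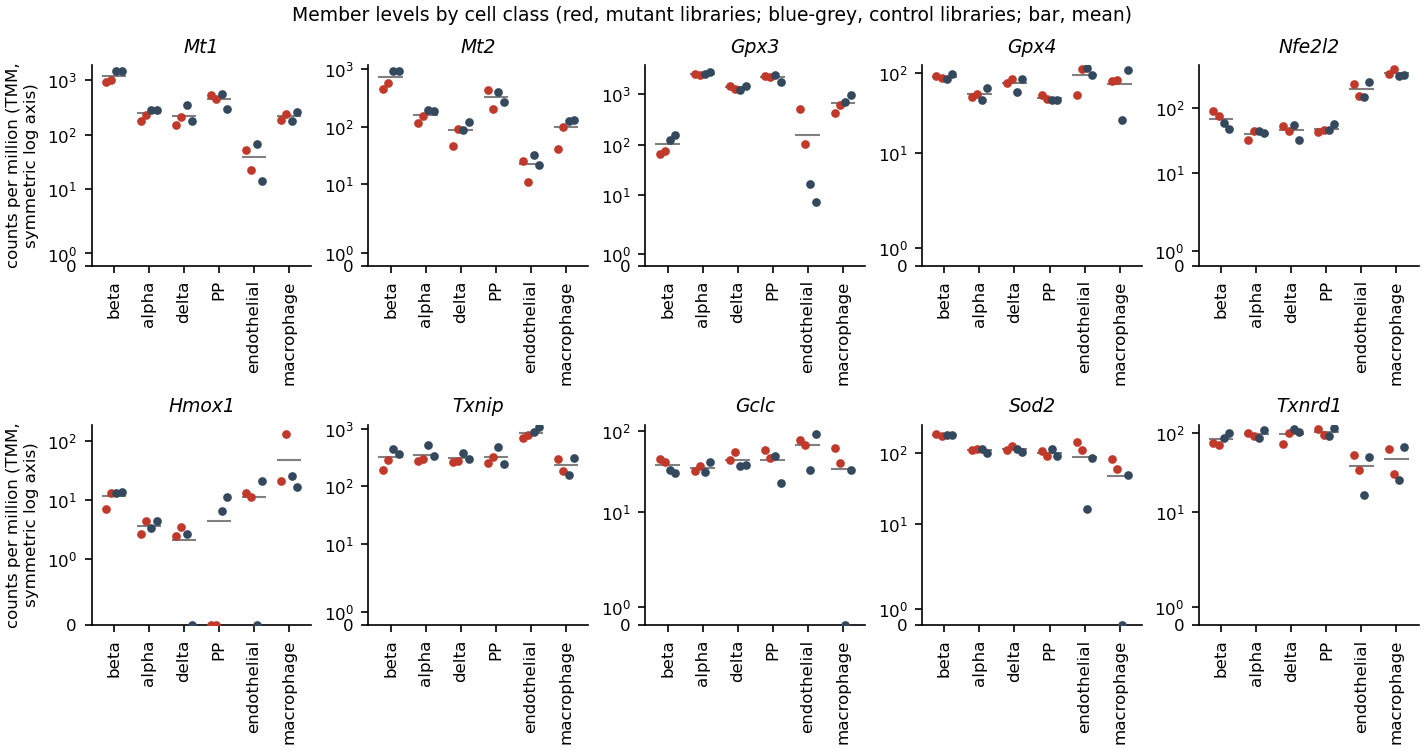
Level of each of the 10 genes (vertical axis, TMM CPM on a symmetric log axis) in 6 cell classes (horizontal axis), with insulin-poor barcodes in the classes other than beta-like; each point is 1 library, red for mutant and blue-grey for control, and bars are means. Mt1 and Mt2 are highest in beta-like cells, where Gpx3 is between 64.7 and 154 CPM and the alpha-like points between 2405 and 2820.

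In beta-like cells, the first comparison asked which members differ in level between islets with Atf4 deleted from beta cells and control islets. Mt2 and Gpx3 fell in the mutants, and Mt1 lay on the same side but missed the threshold. Of 13430 genes tested by edgeR's quasi-likelihood test with Benjamini-Hochberg adjustment at 0.05, 93 passed (0.692%), 64 higher and 29 lower in the mutants (0.477% and 0.216%). All 10 members passed the filter on low counts, and 2 were called. At an unadjusted p under 0.05 there were 7 of 10 members, against 14.5% of all genes. Both mutants lay below both controls for 5 members and above both for 2, against 23.1% and 23.5% of all genes, and the members' median log2 change was -0.37, against 0.01 over all genes.

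Mt2 stood at 283 and 351 CPM in the mutants and at 561 and 565 in the controls, within the beta-like class. The controls were close together and both mutants were lower, by log2 -0.83 ± 0.135 SE (95% interval -1.14 to -0.52, edgeR adjusted p = 0.0417). Mt1 stood at 556 and 602 CPM in the mutants and at 893 and 894 in the controls. Its groups did not overlap either, by log2 -0.63 ± 0.111 SE (edgeR adjusted p = 0.0540). Gpx3 stood at 39.4 and 45.2 CPM in the mutants and at 75.1 and 92.2 in the controls. It had the largest change in size among the members, log2 -0.98 ± 0.143 SE (95% interval -1.31 to -0.66, edgeR adjusted p = 0.0305). Library names began with G1 (mutant 1 and control 2) or G2 (mutant 2 and control 1), prefixes whose meaning the labels do not give. Both mutants lay below both controls for all 3 genes, which by itself fixes that order within each prefix. Without mutant 1, the library with the least Atf4, no member was called, with log2 changes of -0.68 for Mt2 and -0.89 for Gpx3 (edgeR adjusted p = 0.176 and 0.141). Without control 1 or control 2, 4 members were called, but genes called over the whole table also went up from 93, to 543 and 500. Without mutant 2 there were 2 members and 131 genes, and without mutant 1, 36 genes. A lone sample is assumed there to vary like the other group.

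**Figure D2:**
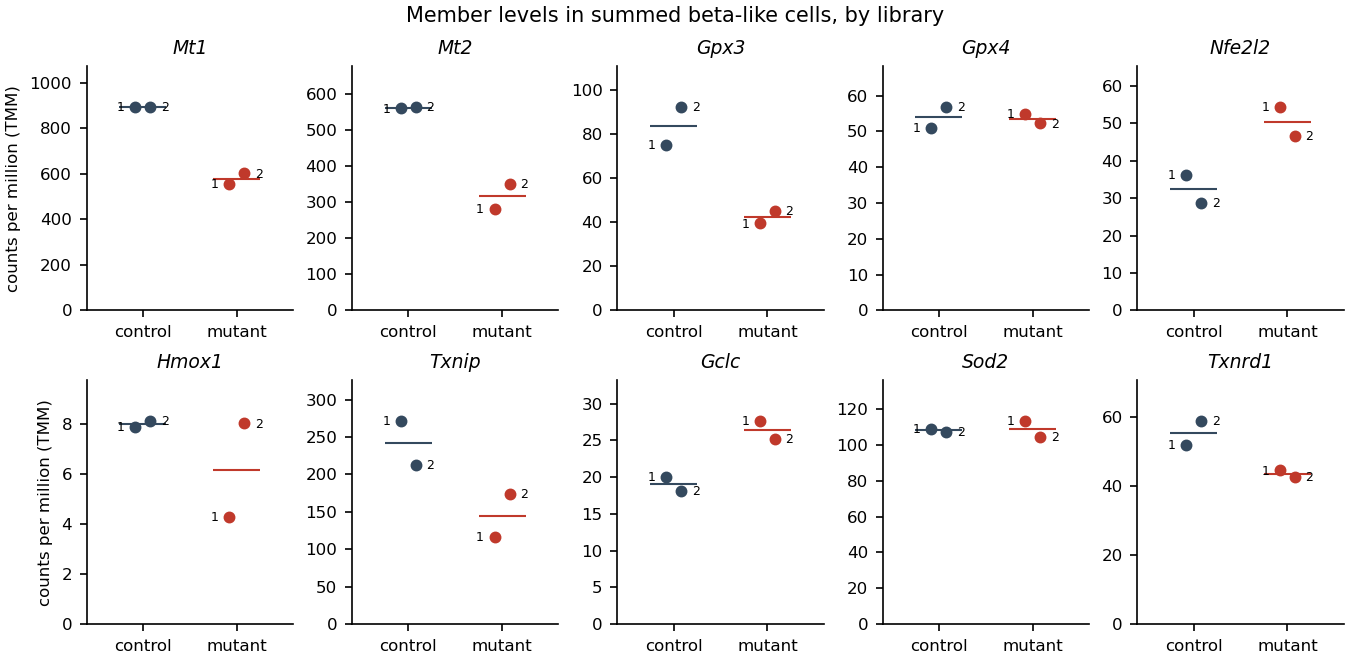
Level of each member (vertical axis, TMM CPM within the class, from 0) in summed beta-like cells of the 2 control and 2 mutant libraries; points are libraries labelled by replicate number and bars are group means. For Mt1, Mt2, Gpx3, Txnip and Txnrd1 both mutants lie below both controls, and for Nfe2l2 and Gclc both lie above.

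Since Gpx3 was high in the other endocrine classes, their markers were measured beside it. Over the beta-like sums, the 10 PP-cell markers together stood at 1037 and 898 CPM in the mutants and at 1302 and 2058 in the controls, all 10 detected. The 10 delta-cell markers ran from 748 to 1178 in mutants and from 1278 to 1600 in controls, and the 12 alpha-cell markers were not lower in the mutants (3855 and 4575, against 3798 and 3663). Limited to beta-like barcodes with under 0.5% of counts from Gcg, Sst, Ppy and Pyy, Gpx3 stood at 27.5 and 28.8 CPM in the mutants and at 62.0 and 70.3 in the controls. The change in these barcodes was log2 -1.23 ± 0.129 SE (edgeR adjusted p = 0.00384), as large as with all barcodes, and Mt1 (-0.64 ± 0.109 SE, edgeR adjusted p = 0.0346) and Mt2 (-0.86 ± 0.130 SE, edgeR adjusted p = 0.0243) passed as well. Acinar markers stood at 44.1 and 38.7 CPM in mutants and at 169 and 206 in controls, and macrophage markers at 56.8 and 94.0 against 140 and 135. Their part in the metallothionein values was not tested.

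The Nrf2 gene and its target Gclc lay higher in the mutants without passing the test. Nfe2l2 stood at 54.4 and 46.6 CPM in the mutants and at 36.3 and 28.7 in the controls, log2 0.64 ± 0.151 SE (edgeR adjusted p = 0.116). Gclc stood at 27.7 and 25.2 in the mutants and at 19.99 and 18.1 in the controls, log2 0.47 ± 0.142 SE (edgeR adjusted p = 0.189). Both groups were separate for both genes. Hmox1, another Nrf2 target, stood at 4.28 and 8.02 CPM in the mutants and at 7.89 and 8.13 in the controls, so that only mutant 1 was apart. Txnrd1 was at 44.5 and 42.7 in the mutants and at 52.0 and 58.9 in the controls, log2 -0.35 ± 0.122 SE (edgeR adjusted p = 0.247).

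Txnip, the thioredoxin-binding protein that rises with glucose, stood at 116 and 173 CPM in the mutants and at 272 and 213 in the controls. The groups did not overlap, but both were spread, and the log2 change of -0.74 ± 0.200 SE did not pass (edgeR adjusted p = 0.158). The spread followed the library-name prefix, with 116 against 213 CPM in G1 and 173 against 272 in G2. With the prefix as a block, Txnip passed (log2 -0.76 ± 0.116 SE, edgeR adjusted p = 0.0156), as did Mt1 (adjusted p = 0.0222), Mt2 and Gpx3, with 274 genes called over the whole table. Gpx4 (54.9 and 52.3 CPM in mutants, 51.1 and 56.8 in controls) and Sod2 (113 and 105 CPM in mutants, 109 and 107 in controls) had overlapping groups. Their log2 changes had 95% intervals of -0.28 to 0.26 and of -0.26 to 0.28, and larger changes in either direction lay outside them.

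Split by sex-linked transcripts, the Gpx3 change in female beta-like cells was log2 -1.59 (edgeR adjusted p = 0.00918). Nfe2l2 (0.87, edgeR adjusted p = 0.0392) and Txnip (-0.92, adjusted p = 0.0408) also passed there. Mt2 (-0.72, edgeR adjusted p = 0.117) and Mt1 (-0.56, adjusted p = 0.217) did not. In male cells the values were -1.12 for Gpx3, -1.11 for Mt2, -0.95 for Mt1, 0.36 for Nfe2l2 and -0.60 for Txnip, and no member passed (edgeR adjusted p of 0.193 or more). The difference between the sexes was not tested. 

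Mutant 2 held beta-like cells with and without Atf4 transcripts, which allowed a comparison inside 1 library. Among its beta-like cells with over 8000 UMIs, 232 had no Atf4 count (94 female and 66 male by their transcripts) and 134 had at least 3 counts (2 female and 113 male). Gpx3 stood at 21.1 CPM in cells with no Atf4 count (95% exact Poisson interval 16.8 to 26.2) and at 67.0 in cells with at least 3 (57.4 to 77.7). Nfe2l2 went the other way, with 63.8 (56.2 to 72.2) and 31.6 (25.1 to 39.2). Mt1 differed less, at 511 (489 to 534) and 632 (602 to 663), and Mt2 stood at 291 and 349, whereas control cells with at least 3 Atf4 counts stood at 862 and 945 for Mt1 and at 534 and 588 for Mt2. Sod2 was 128 (117 to 140) in cells with no Atf4 count and 92.0 (80.7 to 104) in the others, and Txnip was 186 and 197 with overlapping intervals. These intervals cover counting error only, and with 1 such library there is no test. The animal each cell came from is not known. Differences between animals of the pool and differences in Atf4 therefore cannot be told apart, also within male cells.

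The split also moved other quantities. Cells with at least 3 Atf4 counts were deeper (median 18130 against 15166 UMIs) and held more Gcg (1602 against 869 CPM) and Sst (712 against 217). Within barcodes poor in these hormones, where Gcg was 321 and 289 CPM, Gpx3 was 51.5 (42.8 to 61.3) in 126 cells with at least 3 Atf4 counts and 15.0 (11.4 to 19.5) in 222 cells with none. Within male cells alone, Gpx3 was 62.0 (51.9 to 73.5) and 23.2 (15.0 to 34.2), Nfe2l2 29.8 and 66.7, and Mt1 617 and 472, with Gcg at 1513 and 425. Txnip within male cells was 194 (176 to 214) in cells with at least 3 Atf4 counts and 264 (234 to 297) in cells with none, the reverse of its order between mutant and control libraries.

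**Figure D3:**
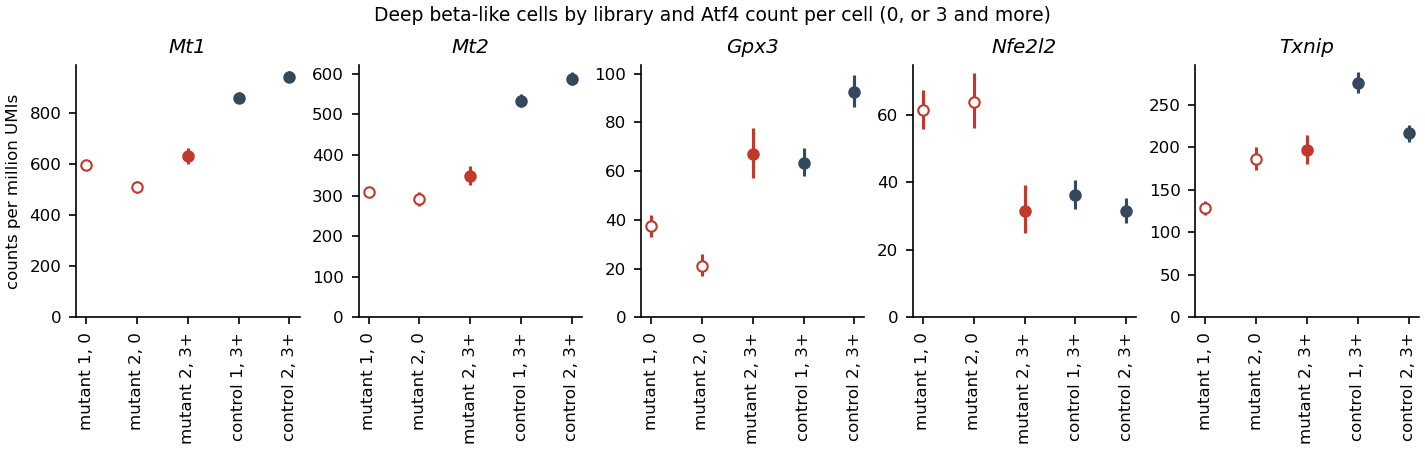
Level of 5 members (vertical axis, CPM, from 0) in beta-like cells with over 8000 UMIs, split by library and by the number of Atf4 counts in the cell (0, open; 3 or more, filled); bars are 95% exact Poisson intervals for counting error. In mutant 2, Gpx3 and Nfe2l2 of the cells with 3 or more Atf4 counts (67.0 and 31.6) lie near the control libraries, whereas Mt1 and Mt2 do not.

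The same comparison was made in the other classes, which Ins1Cre does not mark. No member was called by edgeR in alpha-like (9 tested, background 0.124% of genes called), delta-like (9, 0.187%), PP-like (9, 0.0231%), endothelial-like (9, 0.0408%) or macrophage-like cells (8, 0.612%), and none by DESeq2. At an unadjusted p under 0.05 there were 3 members in alpha-like cells (9.05% of all genes), 3 in delta-like (7.82%), 0 in PP-like (5.98%), 1 in endothelial-like (5.06%) and 2 in macrophage-like cells (10.6%). With insulin-poor barcodes none was called either, against 0.282%, 0.171%, 0.0292%, 0.182% and 0% of genes in the alpha-, delta-, PP-, endothelial- and macrophage-like classes. Hmox1 was below the filter in all 5 of these classes, and Gclc in macrophage-like cells. Across the 6 classes with all barcodes, Mt2 had both mutants below both controls in 6, Mt1 in 5 and Txnip in 4. The share of all genes with both mutants below was 23.1% in beta-like, 19.8% in alpha-like, 19.4% in delta-like, 18% in PP-like, 17.8% in endothelial-like and 20.1% in macrophage-like cells. The log2 change of Mt1, Mt2, Txnip and Txnrd1 was below 0 in all 6 classes with all barcodes. With insulin-poor barcodes, the groups of Mt1 and Mt2 overlapped in delta-like cells (Mt1 at 135 and 186 CPM in mutants, 306 and 162 in controls; Mt2 at 41.2 and 80.6 in mutants, 75.9 and 109 in controls) and in PP-like cells, and neither was tested in endothelial-like cells. The sign turned for Mt1 in insulin-poor PP-like cells, and in endothelial-like cells (0.62) when the members were kept among the clustering genes.

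In alpha-like cells, which carried little insulin, Mt1 stood at 148 and 181 CPM in the mutants and at 234 and 234 in the controls, log2 -0.50 ± 0.164 SE (edgeR adjusted p = 0.388). Mt2 stood at 95.7 and 133 against 157 and 152, and Txnip at 224 and 228 against 409 and 266. All 3 had separate groups, and none passed. In macrophage-like cells Mt2 had the largest change of any member and class, with 616 and 318 CPM in the controls and 185 and 161 in the mutants, log2 -1.40 ± 0.354 SE (edgeR adjusted p = 0.0658). That class carried many insulin-rich barcodes, and in its insulin-poor barcodes the Mt2 change of -1.31 ± 0.654 SE rested on 39 UMIs. In insulin-poor PP-like cells the log2 changes of Mt1 and Mt2 were 0.17 ± 0.254 and -0.06 ± 0.306 SE, with overlapping groups.

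With all barcodes, Gpx3 had overlapping groups in alpha- and delta-like cells. In alpha-like cells it stood at 2042 and 1878 CPM in the mutants and at 2013 and 2269 in the controls, log2 -0.13 ± 0.123 SE. In delta-like cells it stood at 775 and 643 against 557 and 776, log2 0.09 ± 0.157 SE. The mutant effect on Gpx3 was lower in beta-like than in alpha-like cells by log2 -0.86 ± 0.127 SE (edgeR interaction test, adjusted p = 0.000541, 0.314% of 13375 genes called) and than in delta-like cells by -1.09 ± 0.145 SE (adjusted p = 0.00083, 0.128% of genes called). With insulin-poor barcodes these differences were -0.86 and -1.05 and both passed (edgeR adjusted p = 0.000733 and 5.88e-08, with 0.315% and 0.355% of genes called).

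Against PP-like cells the difference was -0.88 ± 0.247 SE and did not pass with all barcodes (edgeR adjusted p = 0.612, 0.046% of genes called), but it was -1.06 ± 0.228 SE and passed with insulin-poor ones (adjusted p = 0.0047, 0.123% of genes called). Against endothelial-like cells it was -1.90 ± 0.295 SE (edgeR adjusted p = 7.46e-07, 0.104% of genes called). There, insulin-poor cells held 39 and 9 Gpx3 UMIs in the mutants and 1 in each control, so that the endothelial-like side held few counts, most of them in mutant 1 (0.179% of genes called with these barcodes). Against macrophage-like cells it was -0.56 ± 0.279 SE (edgeR adjusted p = 0.782, 0.294% of genes called, and 0.0378% with insulin-poor barcodes). In insulin-poor macrophage-like cells Gpx3 stood at 550 and 763 CPM in the mutants against 1279 and 1489 in the controls, log2 -1.09 ± 0.449 SE (edgeR adjusted p = 0.853), and the difference from beta-like cells was -0.28 ± 0.501 SE. No other member had a called difference in any of the 5 comparisons, which share the beta-like libraries. The mutant effect on Mt2 differed by -0.40 ± 0.162 SE from alpha-like and -0.09 ± 0.184 SE from delta-like cells.

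**Figure D4:**
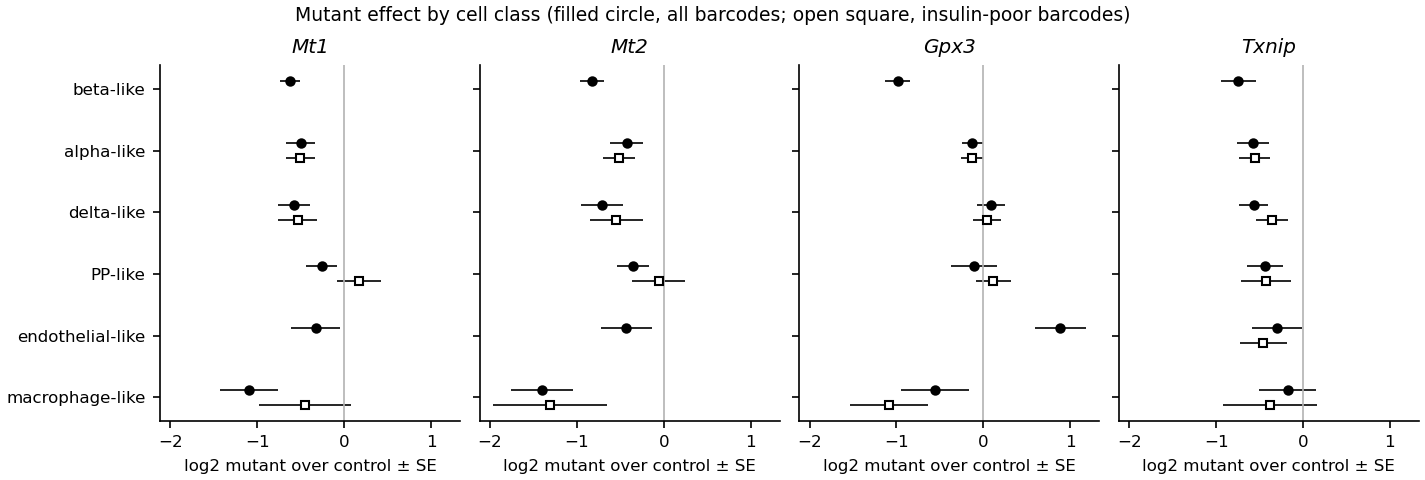
Log2 change of mutant over control (horizontal axis, with SE bars from edgeR) for Mt1, Mt2, Gpx3 and Txnip in 6 cell classes (vertical axis); filled circles use all barcodes and open squares insulin-poor barcodes, where the gene was tested. Mt1, Mt2 and Txnip lie below 0 in every class with all barcodes, and Mt1 in insulin-poor PP-like cells above it, whereas Gpx3 is at -0.98 in beta-like cells and near 0 in alpha- and delta-like cells.

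Mt1 and Mt2 varied together from cell to cell. In beta-like cells with over 8000 UMIs, each thinned to 8000, the Spearman correlation of their counts was 0.632 in mutant 1, 0.616 in mutant 2, 0.601 in control 1 and 0.703 in control 2, over 404 to 534 cells of a library. The cells of a library share its handling and depth, so these values are descriptions. The median Mt1 count was 3 and 4 in the mutants and 6 in both controls, and the 90th percentile was 12 and 10 against 13.6 and 15. The 10% of cells with most Mt1 held 35.3% and 30.3% of all Mt1 counts in the mutants, beside 26.3% and 28.0% in control libraries.

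The wider pathways were counted from 6 lists of 103 genes, all found in the files, of which 89 were tested in beta-like cells. None was called by edgeR or limma-voom and 2 by DESeq2 (Gstm1 and Gstp1, against 1.79% of all genes), while at an unadjusted p under 0.05, which 14.5% of all genes reached, there were 4 above and 12 below the controls. Both mutants lay below both controls for 36 and above them for 17 of the 89, against 23.1% and 23.5% of all genes, and the median log2 change was -0.07, against 0.01 over all genes. The glutathione list held the members with the lowest p-values: Gstm1 and Gstp1, which conjugate glutathione to other molecules, were at log2 -0.70 ± 0.154 and -0.69 ± 0.153 SE (edgeR adjusted p = 0.102 and 0.104). Chac1, a glutathione-degrading enzyme and known Atf4 target, stood at 1.195 and 11.4 CPM in the mutants and at 24.8 and 32.3 in the controls (edgeR adjusted p = 0.159), and Glrx3, a glutaredoxin, was at log2 0.45.

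Among zinc genes, Slc30a8, the zinc transporter of insulin granules, stood at 1081 and 1135 CPM in the mutants and at 923 and 969 in the controls, log2 0.23 ± 0.108 SE. The zinc importers Slc39a14 and Slc39a3 had log2 changes of 0.81 and -0.45, and Slc39a1 -0.28. In the Nrf2 list the lowest p-values belonged to the related factor Nfe2l1 (log2 -0.53) and the sugar phosphate enzymes Taldo1 (-0.28), Tkt (-0.28) and Pgd (-0.25). Of the iron and superoxide genes, Hmox2 was at 0.43, the ferritin light chain gene Ftl1 at -0.28, Blvra at -0.44 and Sod1 at -0.19. Selenok (-0.30), Selenow (-0.28), Sepsecs (-0.26) and Selenos (0.25) led the selenoprotein list, and Msra (0.38), Prdx6 (-0.24), Txn1 (-0.23) and Txnrd3 (-0.49) the thioredoxin list. None of these passed.

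Over 28 sums (7 classes in 4 libraries, log2 CPM), the genes most correlated with each member were listed among 4050 candidates. For Mt1 they were Uggt1, Lman1 and Fam174b (Pearson r 0.97, 0.97 and 0.96), for Mt2 Pdia6, mt-Nd2 and Calr (0.90, 0.87 and 0.87), and for Gpx3 Gata6, Gria2 and Pde4d (0.97, 0.97 and 0.96). Txnrd1 was closest to Tspan7, Bsg and Prdx2 (0.99 each), Nfe2l2 to Pfn1 (0.94), Sod2 to Mia3 (0.87), Gpx4 to Prelid1 (0.97), Gclc to Fkbp15 (0.97), Hmox1 to Atp8a1 (0.82) and Txnip to Iars2 (0.76). The sums share libraries and classes, and their depth varies with class size. The stellate-like sums of control 1 and control 2 came from only 4 and 6 cells (5790 and 9670 UMIs). Txnrd1 and Gpx3 were at 0 in both of these sums. Such points can weigh heavily on r on a log scale, and r without them was not computed.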

How the data were processed

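Single-cell RNA of dissociated mouse islets was measured in 2 mutant and 2 control samples, and human K562 cells had been added at 10% to judge doublets, per the labels' protocols. The authors deposited UMI counts per gene symbol and barcode, unnormalized in the values. Per the submitters' processing notes, mm10 and Seurat were used, and the aligner is not given in the sources used here. Coordinates and sequences come from GRCm38.

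A barcode counted as a cell from 500 detected genes upward if mitochondrial counts stayed below 20%. Doublets called by Scrublet (expected rate 6%) were removed, and cells were clustered in scanpy 1.11.5 (1996 variable genes without the 10 members, 30 components, 15 neighbours, Leiden resolution 1, no integration). Clusters were named from marker lists. A share of each class is set by cell capture and depth and was not compared. Counts were summed per sample and class, since cells are not replicates, and tested in edgeR 4.0.16 (filterByExpr, TMM, glmQLFit and glmQLFTest, Benjamini-Hochberg over all genes, threshold 0.05) in classes with at least 20 cells in every sample. Differences of the mutant effect between classes were tested as an interaction with sample as a block. Intervals are 95% intervals. The code was tested on simulated data. Alternatives were other scalings, filters and tools (DESeq2 1.42.0, limma 3.58.1), blocks, cell filters, sexes and leaving out each sample.

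Named genes were the 10 members, Atf4, up to 4 genes with the lowest p of each of 6 pathway lists, and the 3 genes most like a member. The members and lists were chosen with earlier results of these data known. The insulin-poor limit (under 5% insulin counts), the limit for barcodes poor in other hormones (under 0.5%) and the split by Atf4 count were chosen after seeing the data. Replicates are pools, and nothing says that they were prepared on separate days, so p-values measure only the spread between these samples. Replicates differed beyond sampling noise (chi-square per degree of freedom 13.5 and 16.1). The counting is not stated to use strand. UMI counts of Mt1 and Mt2, close paralogs, could be split by the counting where reads match both.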

Additional observations from a re-analysis of the deposited data

Results flagged for a closer look

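The mutant effect on Gpx3 differed between beta-like cells and 3 other classes by the interaction test in edgeR. The difference, beta-like minus the other class on the log2 scale, was -0.86 for alpha-like cells (adjusted p = 0.000541), -1.09 for delta-like cells (adjusted p = 0.00083) and -1.90 for endothelial-like cells (adjusted p = 7.46e-07). With all barcodes, Gpx3 was lower in both mutants than in both controls in beta-like cells and overlapped between groups in alpha- and delta-like cells. It was higher in both mutants in endothelial-like cells (249 and 340 against 184 and 149 CPM). Insulin-poor endothelial-like cells held 39 and 9 Gpx3 UMIs in the mutants and 1 in each control. Against PP-like cells the difference passed only with insulin-poor barcodes (edgeR adjusted p = 0.0047, and 0.612 with all barcodes). In insulin-poor macrophage-like cells Gpx3 was also lower in both mutants (550 and 763 against 1279 and 1489 CPM). PP-cell markers within the beta-like sums were also lower in the mutants (1037 and 898 against 1302 and 2058 CPM). In beta-like barcodes poor in other hormones the Gpx3 change was as large (log2 -1.23).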

How the results depend on the processing

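With the beta-like class fitted otherwise, genes called (93) and members called (2) became 211 genes and 3 members with library totals (Mt2, Gpx3 and Nfe2l2), 206 genes and 3 members without a filter on low counts (Mt1, Mt2 and Gpx3), 241 genes and 4 members with DESeq2, 58 genes and 3 members with limma-voom, 274 genes and 4 members with the library-name prefix as a block, 54 genes and 1 member with classes from hormones, 57 genes and 0 members with a looser cell filter, 195 genes and 3 members in female cells, 13 genes and 0 members in male cells, and 57 genes and 2 members in deep cells. Leaving out 1 library gave 36 to 543 genes and 0 to 4 members. Mt1, Mt2, Gpx3, Nfe2l2, Txnip, Gclc and Txnrd1 kept their direction in all 21 alternatives, in which Gpx3 was called in 18, Mt2 in 16, Mt1 in 10, Txnip in 4 and Nfe2l2 in 3. Library totals as the only scaling moved the median of all genes to 0.12.

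The replicate numbers share only a number: the deviations of same-numbered samples correlated at -0.0549 over 13430 genes. The library-name prefix pairs the samples the other way round, which only turns the sign of this correlation. Over all genes the pairing by prefix was therefore as weak. With the replicate number as a block, 212 genes and 2 members were called in beta-like cells (Mt2 adjusted p = 0.0202, Gpx3 0.00569, edgeR), and 1 member in endothelial-like cells, where genes called over all genes went from 2 to 42.

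Some log2 changes turned sign. Gpx4 in beta-like cells became 0.10 with library totals, 0.0017 with the members kept among the clustering genes, 0.020 with classes from hormones and 0.0059 in barcodes poor in other hormones, and ranged from -0.088 to 0.067 over left-out libraries. Sod2 became -0.0013 without a filter and -0.081 in female cells, and ranged from -0.049 to 0.044 over left-out libraries. Over left-out libraries Hmox1 ranged from -0.93 to 0.0036, Gpx3 in delta-like cells from -0.13 to 0.34, in macrophage-like cells from -1.13 to 0.59 and in PP-like cells from -0.53 to 0.32. The beta-like minus alpha-like difference of Txnip ranged from -0.48 to 0.061, the beta-like minus delta-like differences of Mt1 from -0.37 to 0.19 and of Mt2 from -0.43 to 0.44, and the beta-like minus macrophage-like difference of Mt2 from -0.12 to 0.90. Mt1 in endothelial-like cells was 0.62 and Gpx3 in PP-like cells 0.23 with the members kept among the clustering genes. With insulin-poor barcodes, PP-like Mt1 was 0.17 and Gpx3 0.12, and the beta-like minus macrophage-like difference of Mt1 was -0.55.

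Without a filter, 2 members were called in delta-like cells among 110 genes (19 with it), 1 in macrophage-like cells among 136 (29 with it) and 1 in the beta-like minus PP-like difference among 15 (6 with it), as was 1 there with insulin-poor barcodes among 16. Leaving out 1 library gave 0 to 1 members in alpha-like cells, 0 to 3 in delta-like cells, 0 to 1 in macrophage-like cells and 0 to 1 in the beta-like minus PP-like difference, where genes called reached 52, 122, 67 and 34. The log2 level of beta-like over the other endocrine classes became, with insulin-poor barcodes, 1.97 for Mt1, 1.86 for Mt2, 0.61 for Gpx4, 1.85 for Hmox1 and 0.73 for Sod2. With classes from hormones it became 2.49 for Mt1, 2.06 for Mt2, 1.29 for Gpx4, 1.49 for Nfe2l2, 2.57 for Hmox1, 0.49 for Txnip, 1.33 for Sod2 and 0.11 for Txnrd1, where the median over all genes was 0.48. The cause of these changes was not tested. Naming classes from hormones left only 1 (control 1) to 8 (mutant 2) delta-like cells per library, and 11 to 35 PP-like ones. The log2 levels given for that setting therefore rest in part on very few cells. With 2 libraries a group and under 50 cells in some classes, small changes were not detectable at this depth.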
